A study of Mus musculus with 9 samples.

Results

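The early response of osteocyte-like cells to stimulated chondrocytes was followed in 3 libraries of MLO-Y4 cells taken after 24 h of co-culture and in 3 control libraries, out of 9 libraries in all. MLO-Y4 is an immortalised mouse line with features of osteocytes, the cells embedded in bone matrix, and is a single line rather than cells freshly taken from bone. In every group the MLO-Y4 cells grew on collagen-coated plates beneath transwell inserts with 1.0 µm pores, which held primary articular chondrocytes from C57BL/6J mice aged 5 to 6 days, so that the cell types shared medium without contact. The chondrocytes of the 24 h group had been stimulated with IL-1β at 10 ng/mL for 6 h and, per the methods of the study, washed before co-culture, while those of the control group were left unstimulated. The remaining 3 libraries came from 48 h of co-culture with chondrocytes stimulated in the same way, and were used here to ask which 24 h changes had returned to the control level. The labels give no culture time for the control group, so stimulation and time in culture cannot be told apart. For the 48 h samples the line is labelled MLO-Y5, MLO-Y6 and MLO-Y7, although the protocols name MLO-Y4 throughout. Nothing says whether the 3 libraries of a group came from separate cultures, so p-values measure the spread between these libraries, which may be technical. All genes kept by a filter on low counts were examined, which was 13812 of the 56748 genes in the table.

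IL-1β is a cytokine that cartilage and bone cells sense through receptors feeding the transcription factor NF-kB, which drives chemokines, acute phase proteins and its own feedback inhibitors. Osteocytes steer bone turnover by secreting factors such as RANKL, which promotes osteoclasts, and those of the subchondral bone lie close to the joint cartilage. Chondrocytes exposed to IL-1β can release cytokines, proteases and metabolites of their own, so the MLO-Y4 cells could meet a mixture of signals.

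The control libraries held 12250628 to 15956441 counts each and the 24 h libraries 14440454 to 15558585. Levels are given as CPM, counts brought to a common library total after scaling, and a difference as a log2 fold change ± SE from edgeR's quasi-likelihood test with Benjamini-Hochberg adjustment over all genes kept. A gene is called when its adjusted p is under 0.05, and "rose" and "fell" refer to called genes. The control libraries differed more among themselves than the 24 h libraries did, and the chi-square per degree of freedom was 5.10 to 8.45 between pairs of control libraries and 2.36 to 3.49 between pairs of 24 h libraries. The 26 osteocyte and osteoblast markers kept were summed to 10903 to 10981 CPM in the control and 10867 to 11138 CPM at 24 h. Several markers of mature osteocytes, and the osteoblast marker Ibsp, were scarce in the line. Mepe, Fgf23 and Ibsp had no read in any library, Sost had at most 1 count and Dmp1 at most 6, while Pdpn, a marker of young osteocytes, stood at 209, 216 and 212 CPM in the control. Of the chondrocyte markers, Acan, Col9a1, Matn1 and Cnmd had no read in any library and Col2a1 had at most 7 counts. The 11 chondrocyte markers kept were summed to 1946 to 2089 CPM in the control and 1921 to 2025 CPM at 24 h, most of it from Prg4, and none of them was called (without control replicate 3, 2 were higher). Macrophage and blood markers were summed to 20.6 to 22.7 CPM in the control and 25.8 to 27.4 CPM at 24 h, most of it from Cd14, with Adgre1, Tyrobp and Cd3e at 0 in every library.

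Between the 24 h and control groups 849 of the 13812 genes kept were called, or 6.15%. At 24 h 449 were higher (3.25% of genes kept) and 400 were lower (2.9%). Most changes were small, and in bulk RNA a change in the share of cells that express a gene and a change of its level per cell cannot be told apart. The median absolute log2 fold change of the called genes was 0.36, 330 of the higher and 326 of the lower genes moved by less than 1.5-fold, and 46 higher and 17 lower genes reached 2-fold. For 841 of the called genes no 24 h value lay within the control range, while 21.5% of all genes kept were free of overlap, 10.3% with the 24 h libraries above and 11.2% with them below. Protein-coding genes supplied 432 of the higher and 383 of the lower genes, and 15 of the 1013 long non-coding RNAs kept were called. The number of calls depended on single libraries. Without control replicate 3, 872 genes were higher and 618 lower, and 795 of the 849 genes kept their call and direction. Leaving out 24 h replicate 1 gave 297 and 226, and leaving out 24 h replicate 3 gave 288 and 231. No called gene changed sign in any of these fits. In gene lists with at most 2 calls in a direction, leaving out 1 library moved that count by up to 7. For many of the lists with more calls, libraries that moved the count are given below. The kit kept the strand but whether counting used it is not given in the sources used here, so counts of Bcl3, Cebpd, Ndufa4l2, Vcan, Has2, Ogn, Plin4, Slc2a1, Sqstm1, Ank, Igfbp7, Psme1, Tapbpl, Col14a1, Timp1, Timp2, Mmp14, Lox, Tnfrsf9, Inhba, Prg4, Cdkn2b, Neu2 and Csf1r, which overlap other genes kept, are uncertain.

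**Figure D1:**
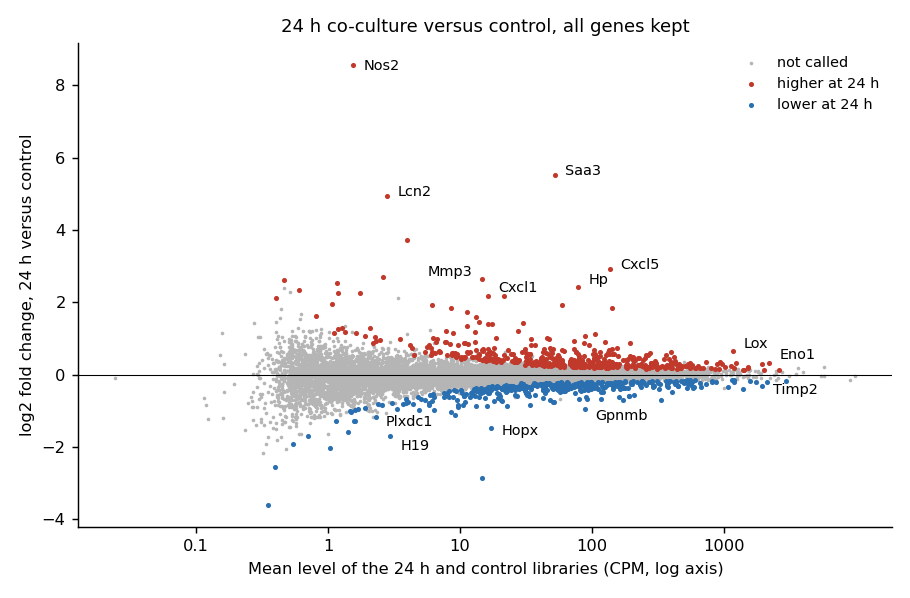
Each dot is 1 of the 13812 genes kept, with its mean level over the 6 control and 24 h libraries on the x axis (CPM, log axis) and its log2 fold change at 24 h versus control on the y axis, with the 449 higher and 400 lower genes in colour. Most called genes lie close to the line at 0 and a small number of inflammatory genes stand far above it, of which Nos2, with no read in the control, has a y value that depends on the fit and is not a bound.

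Among 37 gene lists, chosen with earlier results of these data known, that of the acute phase response had the highest share of called members. Of 14 kept members of this list, 9 rose and none fell, with a median log2 fold change of 0.97, against -0.004 over all genes kept. Saa3 (serum amyloid A3, chromosome 7, 46361422 to 46365124, GRCm39) stood at 1.695, 2.53 and 2.56 CPM in the 3 control libraries and at 107, 79.7 and 119.7 CPM in the 24 h libraries. Every 24 h library lay far above every control library, a 45.7-fold rise (log2 fold change 5.51 ± 0.18, adjusted p = 2.19e-13), although Saa3 has similar gene copies that counting could mix. Lcn2, which encodes the iron-sequestering protein lipocalin-2, had at most 3 counts in each control library and 6.07, 3.78 and 6.35 CPM at 24 h, at least 24.6-fold above the floor of 3 counts per library (adjusted p = 3.28e-07).

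Plasma proteins made mostly by the liver were among the members that rose. Hp, encoding the haemoglobin scavenger haptoglobin, rose from 23.1, 24.6 and 26.6 CPM to 133, 121 and 143 CPM (log2 fold change 2.42 ± 0.08, adjusted p = 2.19e-13). C3, the central complement component, rose from 6.91, 8.42 and 8.28 CPM to 35.1, 32.9 and 38.4 CPM (log2 fold change 2.18 ± 0.10, adjusted p = 6.34e-11). The groups did not overlap for either gene. The long pentraxin Ptx3 followed (log2 fold change 1.74 ± 0.12, adjusted p = 2.06e-08), and the lipopolysaccharide co-receptor Cd14 with 0.62 ± 0.10 (adjusted p = 0.000304). At 48 h Hp and C3 stood higher still, at 196, 211 and 189.6 CPM and 58.8, 64 and 56.4 CPM, whereas Ptx3 stood at 10.2, 11.3 and 9.02 CPM, between the control and 24 h libraries.

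Chemokines split by direction. Of 12 kept members 5 rose and 2 fell, while 3 rose without 24 h replicate 3. The largest rises belonged to 3 neutrophil-attracting CXC chemokines that lie together on chromosome 5 (GRCm39), Cxcl5 at 90907219 to 90909483, Cxcl3 at 90933962 to 90937459 and Cxcl1 at 91039100 to 91040974. Cxcl5 rose from 30.5, 31.1 and 33.1 CPM to 256, 215 and 251 CPM (log2 fold change 2.93 ± 0.08, 95% interval 2.76 to 3.10, adjusted p = 3.26e-14). Cxcl1 rose from 6.53, 5.23 and 5.79 CPM to 28.3, 21.5 and 30.1 CPM (log2 fold change 2.17 ± 0.14, 95% interval 1.89 to 2.46, adjusted p = 6.16e-09). Cxcl3 rose from 26.1, 24.4 and 23.02 CPM to 98.9, 81.3 and 101 CPM (log2 fold change 1.93 ± 0.08, 95% interval 1.75 to 2.11, adjusted p = 3.66e-11). In all 3 genes the lowest 24 h value was that of replicate 2, and it still exceeded every control value several times over.

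After 48 h these neighbours had parted. Cxcl1 was back at 5.43, 5.27 and 5.87 CPM and Cxcl3 at 25.3, 23.9 and 26.2 CPM, neither called versus control (adjusted p = 0.672 and 0.787), while Cxcl5 remained at 91.4, 97.1 and 82.4 CPM, above control (log2 fold change 1.52 versus control, adjusted p = 4.34e-11) and below 24 h (-1.41 versus 24 h, adjusted p = 1.77e-11). Ccl9, a CC chemokine that attracts osteoclast precursors, went the other way. It fell from 28.8, 24.6 and 22.4 CPM to 14.3, 16.7 and 15.9 CPM at 24 h (log2 fold change -0.70 ± 0.10, adjusted p = 0.000121) with no overlap between the groups, and stood at 37.5, 39.01 and 36.2 CPM at 48 h.

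The sequences around the start sites of the 5 most changed genes of the chemokine, NF-kB and hypoxia lists with 1 promoter in the table are shown, since these groups hold well-known targets of NF-kB and of hypoxia-inducible factors. They run from 250 bases before to 50 bases after the start, 5′ to 3′, and come from RefSeq on build GRCm38.p6, an older build than the GRCm39 of the counts. Capitals mark matches, on either strand, to the kappa-B consensus, to ACGTG (a core of the hypoxia response element) and to TGANTCA (the AP-1 site). Other forms of the hypoxia response core, such as GCGTG, were not searched. No promoter was used here for Cxcl5, Nos2, Nfkbiz and Ndufa4l2.
Cxcl1, chr5:90890995-90891294, plus strand: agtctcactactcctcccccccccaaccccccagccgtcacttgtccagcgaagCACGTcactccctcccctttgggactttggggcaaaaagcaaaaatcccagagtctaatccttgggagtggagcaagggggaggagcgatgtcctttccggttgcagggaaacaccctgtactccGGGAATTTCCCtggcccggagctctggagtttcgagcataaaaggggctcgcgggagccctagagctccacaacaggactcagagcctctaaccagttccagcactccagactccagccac
Cxcl3, chr5:90785851-90786150, plus strand: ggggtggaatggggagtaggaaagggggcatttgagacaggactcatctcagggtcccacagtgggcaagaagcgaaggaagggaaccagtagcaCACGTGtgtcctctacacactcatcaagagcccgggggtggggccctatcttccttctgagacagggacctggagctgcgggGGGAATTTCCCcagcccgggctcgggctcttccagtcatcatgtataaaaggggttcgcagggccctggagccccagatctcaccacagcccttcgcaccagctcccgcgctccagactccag
Zc3h12a, chr4:125127832-125128131, minus strand: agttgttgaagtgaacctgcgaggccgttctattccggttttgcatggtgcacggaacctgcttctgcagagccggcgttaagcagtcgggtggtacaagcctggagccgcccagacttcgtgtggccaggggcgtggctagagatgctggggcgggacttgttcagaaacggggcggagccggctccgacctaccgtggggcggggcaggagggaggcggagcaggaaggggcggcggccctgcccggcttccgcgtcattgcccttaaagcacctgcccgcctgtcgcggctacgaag
Car9, chr4:43506776-43507075, plus strand: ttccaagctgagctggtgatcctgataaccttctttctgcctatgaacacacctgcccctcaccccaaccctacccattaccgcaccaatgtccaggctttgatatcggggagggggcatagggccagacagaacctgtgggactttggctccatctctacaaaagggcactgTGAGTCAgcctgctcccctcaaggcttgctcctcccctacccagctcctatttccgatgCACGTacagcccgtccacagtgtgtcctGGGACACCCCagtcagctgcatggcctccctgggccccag
Egln3, chr12:54203825-54204124, minus strand: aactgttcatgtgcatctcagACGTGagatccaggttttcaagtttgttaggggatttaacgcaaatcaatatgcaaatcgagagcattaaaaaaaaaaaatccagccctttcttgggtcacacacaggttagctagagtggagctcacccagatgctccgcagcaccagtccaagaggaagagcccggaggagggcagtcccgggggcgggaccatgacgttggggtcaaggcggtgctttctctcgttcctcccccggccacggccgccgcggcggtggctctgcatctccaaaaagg
Cxcl1 and Cxcl3 held the same kappa-B match, GGGAATTTCC, starting 71 and 73 bases before the start site and overlapping a match on the other strand, and each had an ACGTG match farther upstream. Car9 held a match to each motif, of which that to the kappa-B consensus began 10 bases after the start site. Egln3 held a match to ACGTG, while none of the motifs searched matched in the window of Zc3h12a.

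Over genes with 1 promoter in the table, a kappa-B match was present in 9.94% of the promoters of all genes kept (783 of 7879), in 14.4% of those called higher (39 of 270) and in 11.5% of those called lower (25 of 218). Over all 32851 promoters of the table it was 8.46%. ACGTG was present in 26.5% of all genes kept, 28.1% of those higher, 25.7% of those lower and 19.6% of all promoters. TGANTCA was present in 4.62% of all genes kept, 7.41% of those higher, 10.1% of those lower and 7.81% of all promoters. In a subset chosen after the data were seen, the 25 such genes that rose at least 2-fold, 11 promoters held a kappa-B match, 7 held ACGTG and 6 held TGANTCA. Matches are descriptions of these windows, and no test was made of the shares.

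Of 21 kept members of the list of inflammatory cytokines, 5 rose and none fell. Il6, a gp130 cytokine, was low throughout, at 0.628, 0.327 and 0.828 CPM in the control and 3.14, 2.34 and 3.32 CPM at 24 h, and all 24 h libraries lay above all control libraries (log2 fold change 2.27 ± 0.32, adjusted p = 0.000128). Il33, the ligand of the receptor encoded by Il1rl1, rose from 6.09, 6.296 and 7.52 CPM to 20.5, 17.97 and 21.7 CPM (log2 fold change 1.60 ± 0.12, adjusted p = 1.17e-07). Lif, another gp130 cytokine, rose from 7.597, 7.195 and 7.45 CPM to 20.03, 16.9 and 24.6 CPM (log2 fold change 1.46 ± 0.14, adjusted p = 1.02e-06). Il33 stood at 10.1, 11.6 and 12.4 CPM at 48 h, and its 3 groups of libraries did not overlap. Lif stood at 6.06, 5.03 and 5.98 CPM at 48 h, below every control library though not called (adjusted p = 0.0508). Il11 rose to 11.01, 9.76 and 9.45 CPM from 5.399, 4.58 and 6.02 CPM (log2 fold change 0.91 ± 0.17, adjusted p = 0.00175).

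**Figure D2:**
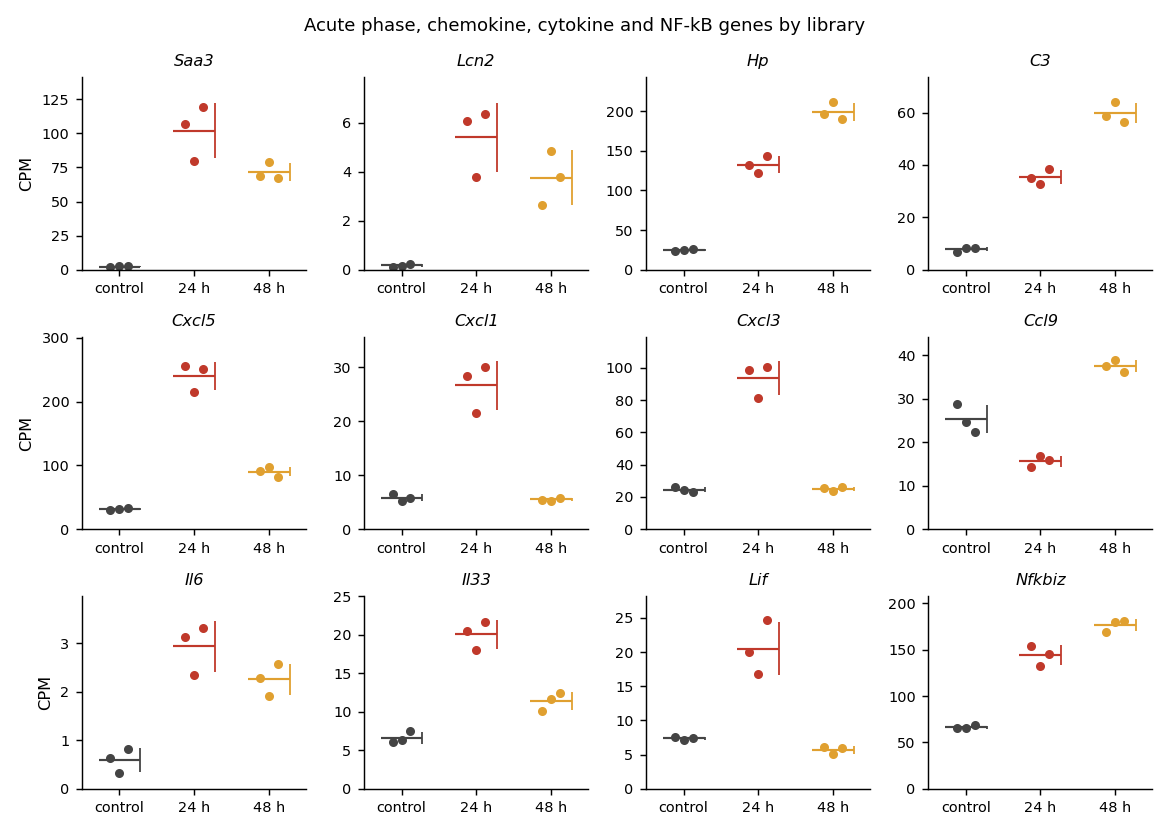
Points are CPM of single libraries, horizontal lines group means and vertical lines ± 1 SD (n = 3), for 12 genes in the control (grey), 24 h (red) and 48 h (yellow) libraries. Each y axis starts at 0. In 11 of the 12 genes every 24 h library lies above every control library, and in Ccl9 below. Cxcl1 and Cxcl3 are back at the control level at 48 h, while Hp, C3 and Nfkbiz are higher at 48 h than at 24 h.

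Among NF-kB subunits and feedback inhibitors, 5 of 29 kept genes rose and none fell. The 3 largest changes were in inhibitors or modulators of the pathway. Zc3h12a, encoding regnase-1, a ribonuclease that degrades cytokine transcripts, rose from 16.8, 16.6 and 16.7 CPM to 39.7, 36.7 and 40.1 CPM (log2 fold change 1.22 ± 0.08, adjusted p = 1.09e-08). Nfkbiz, encoding the atypical nuclear inhibitor IκBζ, rose from 66.05, 65.2 and 68.5 CPM to 155, 133 and 146 CPM (log2 fold change 1.12 ± 0.06, adjusted p = 1.43e-09). Bcl3, another atypical IκB gene, had 0.83 ± 0.08 (adjusted p = 8.55e-07) and the classical inhibitor gene Nfkbia 0.41 ± 0.07 (adjusted p = 0.00098). At 48 h the level of Zc3h12a was 24.8, 25.6 and 22.7 CPM, lower than at 24 h, while Bcl3 was at 81.4, 76.4 and 81.9 CPM, higher than at 24 h. Of 32 kept receptor and adaptor genes of the IL-1, Toll-like and TNF families 2 were called (6.25%), near the 6.15% over all genes kept. They were Tnfrsf9 (0.62 ± 0.04, adjusted p = 3.58e-08), which encodes the co-stimulatory receptor 4-1BB, and Il1rl1 (0.25 ± 0.05, adjusted p = 0.00339), and both rose.

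The gp130, STAT and SOCS list held 8 higher and 1 lower of 35 kept genes. Il13ra2, the decoy receptor for IL-13, rose from 0.377, 0.491 and 0.1505 CPM to 2.14, 1.76 and 2.12 CPM (log2 fold change 2.54 ± 0.39, adjusted p = 0.000332), and its signalling counterpart Il13ra1 rose by 0.48 ± 0.06 (adjusted p = 2.85e-05). Cebpd, a transcription factor gene of the acute phase, rose from 9.92, 9.89 and 6.85 CPM to 25.8, 20.6 and 24.7 CPM (log2 fold change 1.41 ± 0.14, adjusted p = 2.42e-06). Socs3, the feedback inhibitor of gp130 signalling, rose by 0.57 ± 0.07 (adjusted p = 2.1e-05).

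Interferon-stimulated genes were not among the higher genes. None of 58 kept members was higher and 6 were lower, and 41 of the 58 had an estimate below 0 (median -0.08). Without control replicate 1, 24 h replicate 1 or 24 h replicate 3, 2 members were lower. Ifit3, an antiviral effector with similar gene copies, stood at 27.1, 21.1 and 23.5 CPM in the control and 15.9, 18.9 and 13.3 CPM at 24 h (log2 fold change -0.58 ± 0.12, adjusted p = 0.00569, and 0.0568 without control replicate 1). Of 22 kept genes of class I antigen presentation, 5 were lower and 1 higher with a median of -0.14, and 9 were lower without control replicate 3. Psmb10, a subunit of the immunoproteasome, fell from 46.8, 55.03 and 50.03 CPM to 36.98, 41.5 and 35.9 CPM (log2 fold change -0.40 ± 0.08, adjusted p = 0.00224). Psme1, encoding a proteasome activator, and Tapbpl, encoding a peptide editor, fell by 0.27 and 0.35 on the log2 scale (adjusted p = 0.00593 and 0.00368). Tap2, the peptide transporter subunit, fell by 0.32 on the log2 scale (adjusted p = 0.00697, and 0.0564 without 24 h replicate 3).

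The study followed pyroptosis, an inflammatory form of cell death. In this co-culture it reported more Casp1, GSDMD and IL-1β protein on Western blots. It also reported enrichment of the NOD-like receptor pathway among its genes higher at 24 h and 48 h. The values here are of RNA, and the counts below are for 24 h. They are of an inflammasome and pyroptosis list chosen by hand, not of the pathway gene set of the study, and do not test its enrichment. Il6, Cxcl1, Cxcl3 and Nfkbia, which rose, were counted in other lists here. The study's genes higher at 24 h also came from its own fit. Of the 23 kept genes of the list 1 was called (4.35%), near the 6.15% over all genes kept. This was Ripk2, the kinase downstream of NOD receptors, at 25.2, 21.5 and 21.7 CPM in the control and 28.8, 27.7 and 30.8 CPM at 24 h (log2 fold change 0.34 ± 0.08, adjusted p = 0.0182). Its call was lost without control replicate 2, 24 h replicate 1 or 24 h replicate 3 (adjusted p up to 0.105). Casp4, an inflammatory caspase, stood at 6.47, 8.83 and 6.696 CPM in the control and 7.88, 10.2 and 11.8 CPM at 24 h and was not called (adjusted p = 0.101, unadjusted 95% interval of the log2 fold change 0.12 to 0.77). Gsdmd, which encodes the pore former of pyroptosis, had an interval of -0.08 to 0.95 and Casp1, the canonical inflammasome caspase, of -0.34 to 0.51 (adjusted p = 0.362 and 0.889). For all 3 genes the control and 24 h libraries overlapped. Casp4 was called without control replicate 2 or without 24 h replicate 1 (smallest adjusted p = 0.0321) and without the filter on low counts (adjusted p = 0.0194). At 48 h versus control both Casp4 and Gsdmd were called higher, with log2 fold changes of 1.52 and 0.97 (adjusted p = 6.76e-08 and 0.00189). Il1b, which encodes IL-1β, was removed by the filter on low counts. Its libraries held 0, 0 and 0 counts (control), 0, 2 and 0 (24 h) and 0, 0 and 1 (48 h). The filter also removed the inflammasome sensor genes Nlrp3, Nlrc4 and Aim2. Nlrp3 had 0, 0 and 2 counts in the control and 6, 0 and 6 at 24 h. Nlrc4 had 0, 1 and 1, then 4, 4 and 5, and Aim2 had no read in either group. The fit reported did not test these genes.

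The list of hypoxia-inducible genes, chosen like the others with earlier results of these data known, held more higher genes than any other list. Of 52 kept members, 25 rose and none fell, with a median of 0.24, against 3.25% higher over all genes. Between 19 and 30 members rose over the alternative fits, with the fewest without 24 h replicate 3. Nos2, inducible nitric oxide synthase (chromosome 11, 78811613 to 78851080), had no read in the control libraries and 2.87, 2.08 and 4.304 CPM at 24 h, at least 14.04-fold above the floor of 3 counts per library (adjusted p = 1.89e-06). Vegfa, the angiogenic growth factor, rose from 117, 121 and 117 CPM to 185, 172 and 175 CPM (log2 fold change 0.58 ± 0.05, adjusted p = 4.32e-07). Bnip3, a mitophagy receptor, rose from 94.5, 91.5 and 86.5 CPM to 134, 148 and 137 CPM (log2 fold change 0.62 ± 0.06, adjusted p = 8.37e-07). Neither gene overlapped between the groups.

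Egln3 and Car9 had few reads. Egln3, a prolyl hydroxylase that marks hypoxia-inducible factor for decay, stood at 6.404, 6.13 and 5.49 CPM and 12.7, 7.81 and 12.2 CPM (log2 fold change 0.85 ± 0.17, adjusted p = 0.00304). Car9, carbonic anhydrase IX, stood at 0.502, 0.654 and 0.903 CPM and 1.27, 1.69 and 1.62 CPM (log2 fold change 1.16 ± 0.30, adjusted p = 0.0272), a call lost on leaving out the control replicates 1 or 2 or the 24 h replicates 2 or 3 (adjusted p up to 0.144) and in a fit of the control and 24 h libraries alone (adjusted p = 0.0868). At 48 h Car9 reached 11.4, 10.2 and 8.91 CPM and Ndufa4l2, a mitochondrial subunit gene, 21.5, 17.7 and 18.2 CPM, from 3.34, 2.28 and 3.25 CPM at 24 h. Lox, encoding the collagen cross-linking enzyme lysyl oxidase, rose from 973, 852 and 908 CPM to 1465, 1367 and 1443 CPM (log2 fold change 0.65 ± 0.05, adjusted p = 7.27e-08).

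Many glycolysis genes rose, with small folds. Of 27 kept members, 15 rose and none fell, with a median of 0.19, and between 11 and 15 rose over the alternative fits. Pfkfb3, which makes the activator of phosphofructokinase, rose from 24.4, 26.7 and 29.8 CPM to 50.4, 45.4 and 47.2 CPM (log2 fold change 0.83 ± 0.08, adjusted p = 1.02e-06). Hk2, the first enzyme of the pathway, rose from 83.1, 78.3 and 90.7 CPM to 133, 113 and 132 CPM (log2 fold change 0.58 ± 0.08, adjusted p = 0.000102). Slc2a1, the glucose transporter GLUT1, rose from 164, 179.6 and 163 CPM to 236, 219 and 240.0 CPM (log2 fold change 0.46 ± 0.06, adjusted p = 4.07e-05). The groups were separate in all 3 genes, and Pfkfb3 and Slc2a1 were higher again at 48 h, at 75.8, 74.3 and 80.2 and 274, 255 and 288 CPM. Eno1 and Ldha, enolase and lactate dehydrogenase, rose by 0.32 ± 0.04 and 0.28 ± 0.04 (adjusted p = 2.67e-05 and 8.83e-05). Eno1 stayed at 2303, 2291 and 2257 CPM at 48 h against 1889, 2079 and 1878 CPM in the control, whereas Ldha had 1787, 1776 and 1754 CPM against 1749, 1839 and 1673 CPM (adjusted p = 0.777 at 48 h versus control).

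Many lysosomal genes fell. Of 56 kept hydrolases and membrane proteins, 22 were lower and 1 higher, against 2.9% lower over all genes, and 50 of the 56 estimates were below 0 (median -0.16). Without control replicate 1, 13 were lower, without 24 h replicate 1, 12, and without 24 h replicate 3, 11. Gpnmb, a lysosomal glycoprotein gene, changed most, from 130.5, 114 and 105 CPM to 60.7, 66.3 and 53.9 CPM (log2 fold change -0.95 ± 0.08, adjusted p = 4.75e-07). Ctsk, the collagen-degrading cathepsin K, fell from 142, 141 and 126 CPM to 98.1, 97.7 and 98.1 CPM (log2 fold change -0.47 ± 0.06, adjusted p = 8.41e-05). Psap, the precursor of the saposins, fell from 2290.5, 2319 and 2236 CPM to 1906, 2057 and 1971 CPM (log2 fold change -0.21 ± 0.04, adjusted p = 0.00118). No 24 h library reached a control library in these genes. At 48 h they differed, with Gpnmb at 103, 112 and 100.4 CPM, Ctsk at 106, 122 and 107 CPM and Psap at 2874, 2994 and 2865 CPM. Of 51 autophagy genes 3 rose and 4 fell (7 higher without control replicate 3, 1 higher without 24 h replicate 2 or 24 h replicate 3, and 2 lower without control replicate 1 or 24 h replicate 1), among them Bnip3 above and the receptor gene Sqstm1, which fell from 749, 797 and 711 CPM to 586, 616 and 579 CPM (log2 fold change -0.34 ± 0.05, adjusted p = 8.96e-05).

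**Figure D3:**
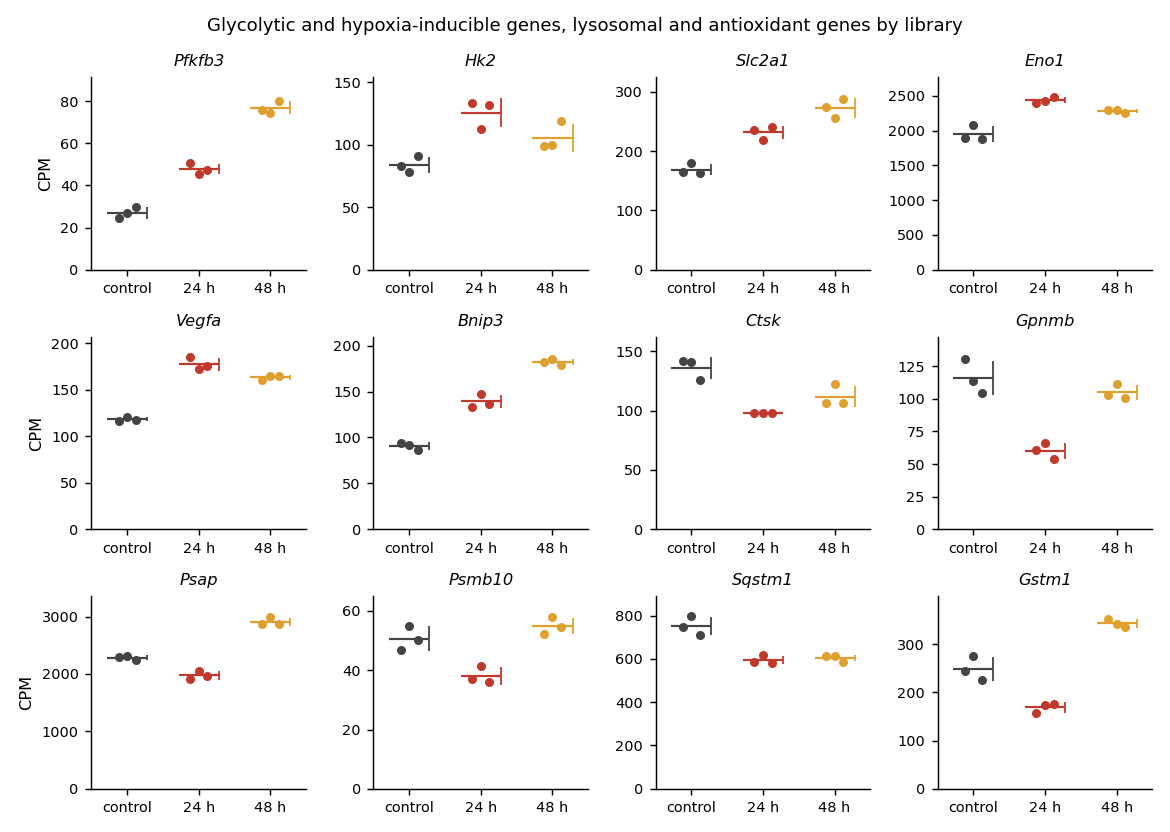
Points are CPM of single libraries, horizontal lines group means and vertical lines ± 1 SD (n = 3), for 6 glycolytic and hypoxia-inducible genes (Pfkfb3 to Bnip3) and 6 lysosomal, proteasomal and antioxidant genes (Ctsk to Gstm1) in the control (grey), 24 h (red) and 48 h (yellow) libraries. Each y axis starts at 0. The first 6 genes are higher and the last 6 lower at 24 h than in the control, with no overlap between those groups, and Psap and Gstm1 are above the control at 48 h.

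The list of NRF2 targets and other antioxidant enzymes moved both ways, with 9 lower and 4 higher of 51 kept genes. Without control replicate 3, 13 were lower, and without 24 h replicate 1, 7 were. Gstm1, a glutathione transferase, fell from 244, 276 and 225 CPM to 157, 174 and 176 CPM (log2 fold change -0.56 ± 0.07, adjusted p = 1.78e-05), and the ferritin light chain gene Ftl1 fell by 0.38 ± 0.06 on the log2 scale (adjusted p = 0.000306). Sod2, mitochondrial superoxide dismutase, rose from 85.6, 79.7 and 74.1 CPM to 128, 117 and 139 CPM (log2 fold change 0.68 ± 0.07, adjusted p = 2.99e-06). Hmox1, haem oxygenase, was not called, with 288, 282 and 267 CPM in the control, 279, 283 and 286 CPM at 24 h and a 95% interval of -0.08 to 0.12. In the list of the ATF4 and unfolded protein responses, 4 rose and 1 fell of 44, among them the chaperone gene Hspa5, which rose by 0.20 ± 0.04 (adjusted p = 0.00325). Without 24 h replicate 1 or 24 h replicate 3, 2 of that list rose, and without 24 h replicate 2, 1.

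Matrix-degrading enzymes and their inhibitors moved both ways. Of 27 kept matrix metalloproteinases, ADAMTS proteases and inhibitors, 6 rose and 5 fell, and 3 fell without 24 h replicate 2 or 24 h replicate 3. Mmp3, stromelysin-1, rose from 4.897, 3.19 and 3.99 CPM to 28.4, 21.4 and 26.8 CPM (log2 fold change 2.64 ± 0.15, adjusted p = 2.47e-09). Mmp13, a collagenase of cartilage and bone, rose from 4.33, 2.94 and 3.84 CPM to 14.8, 12.8 and 13.1 CPM (log2 fold change 1.85 ± 0.13, adjusted p = 3.12e-08) and stood at 28.5, 28.3 and 27.97 CPM at 48 h. Plau, urokinase, rose by 0.73 ± 0.06 (adjusted p = 1.7e-07). Each of these was higher in every 24 h library than in every control library. Timp2, an inhibitor of metalloproteinases, fell from 2172, 2188 and 2178 CPM to 1758, 1729 and 1747 CPM (log2 fold change -0.32 ± 0.03, adjusted p = 3.08e-06), a 1.25-fold change with the groups far apart relative to their spread. As members chosen after their values were seen, the inhibitor gene Timp1 rose by 0.55 ± 0.05 (adjusted p = 9.22e-07) and Mmp14, a membrane-bound protease gene, fell by 0.27 ± 0.05 on the log2 scale (adjusted p = 0.000893).

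In the list of collagens and their processing 8 genes were lower and 3 higher of 39 kept. Estimates were balanced, with 19 above 0 and 20 below (median -0.02). Leaving out 24 h replicate 1 left 4 lower and leaving out 24 h replicate 3 left 5, with 3 higher in each. The fibril-forming Col1a1 fell from 1218, 1297 and 1304 CPM to 1101, 1084 and 1141 CPM (log2 fold change -0.20 ± 0.04, adjusted p = 0.00312), and its partner chain gene Col1a2 from 254, 265 and 273 CPM to 202, 211 and 217 CPM (log2 fold change -0.33 ± 0.05, adjusted p = 0.000181). Col14a1 and Col6a3 fell by 0.56 ± 0.07 and 0.38 ± 0.06 on the log2 scale (adjusted p = 4.24e-05 and 0.000597). Col12a1, which decorates collagen fibrils, rose from 62.6, 58.7 and 85.2 CPM to 127, 111 and 127 CPM (log2 fold change 0.82 ± 0.10, adjusted p = 4.4e-05), and Col5a2 rose by 0.36 ± 0.04 (adjusted p = 6.52e-06). Col1a2 and Col14a1 exceeded the control at 48 h, with 289, 283 and 289 CPM and 79.8, 75.99 and 72.01 CPM, whereas Col12a1 stayed at 117, 125 and 141 CPM.

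The non-collagen matrix genes were divided, with 11 higher and 8 lower of 49 kept. Without control replicate 2, 14 were higher and 11 lower, and without 24 h replicate 1 or 24 h replicate 3, 9 and 7. Vcan, the large proteoglycan versican, rose from 136, 117 and 156 CPM to 264, 229 and 259 CPM (log2 fold change 0.88 ± 0.09, adjusted p = 1.66e-06). Has2, a hyaluronan synthase, rose from 7.47, 7.11 and 6.32 CPM to 13.4, 12.95 and 11.01 CPM (log2 fold change 0.83 ± 0.14, adjusted p = 0.000512). Ogn, the small leucine-rich proteoglycan osteoglycin, fell from 63.8, 61.2 and 65.6 CPM to 35.7, 43.8 and 34.01 CPM (log2 fold change -0.75 ± 0.08, adjusted p = 5.37e-06). The groups did not overlap in any of the 3 genes, and Ogn stood at 167, 161 and 153 CPM at 48 h.

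Among genes that regulate osteoclasts, 9 of 22 kept rose and 1 fell, several of them the cytokines given above. Without 24 h replicate 3, 7 of these genes rose. Tnfsf11, which encodes RANKL, stood at 9.17, 8.09 and 5.94 CPM in the control and 14.2, 14 and 14.4 CPM at 24 h (log2 fold change 0.87 ± 0.13, adjusted p = 0.000173), with no overlap. Tnfrsf11b, which encodes its decoy receptor, was not called, with 1.695, 1.14 and 1.88 CPM in the control, 1.402, 2.02 and 0.847 CPM at 24 h and a 95% interval from -0.85 to 0.56. In the prostaglandin list 3 of 20 kept genes rose and none fell, among them 2 enzymes of prostaglandin E2 synthesis. Ptgs2, cyclooxygenase-2, rose from 53.99, 44.2 and 53.9 CPM to 99.6, 87.95 and 101 CPM (log2 fold change 0.92 ± 0.08, adjusted p = 4.86e-07), and Ptges, the terminal synthase, from 108, 114 and 104 CPM to 163, 149 and 174 CPM (log2 fold change 0.58 ± 0.06, adjusted p = 5.81e-06). At 48 h Ptges was back at 118, 112 and 120.4 CPM and Ptgs2 lay below every control library, at 29.5, 32.1 and 27.3 CPM.

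Of 26 kept osteocyte and osteoblast markers, 4 were lower and 1 higher, and 4 were higher without control replicate 3. Ank, a pyrophosphate transporter that limits mineralisation, fell from 217, 206 and 217 CPM to 136, 138 and 123 CPM (log2 fold change -0.69 ± 0.05, adjusted p = 1.7e-07) and was at 133, 127 and 133 CPM at 48 h. The higher marker was Pdpn (0.27 ± 0.05, adjusted p = 0.000935). The chondrocyte marker Prg4, which encodes lubricin, was not called, with 1558, 1566 and 1605 CPM in the control and 1537, 1479.5 and 1462 CPM at 24 h.

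The TGF-beta and BMP list held 9 higher and 1 lower of 44 kept genes, but 5 higher without control replicate 1 and 4 without 24 h replicate 1 or 24 h replicate 3. Activin and its antagonist rose together. Inhba, which encodes the activin A subunit, rose from 115, 82.7 and 121 CPM to 168, 150.4 and 160.0 CPM (log2 fold change 0.59 ± 0.10, adjusted p = 0.000495), and Fst, which encodes the activin-binding protein follistatin, from 4.21, 4.42 and 3.84 CPM to 9.01, 7.36 and 8.75 CPM (log2 fold change 1.01 ± 0.16, adjusted p = 0.000381). The BMP antagonist Grem1 rose by 0.49 ± 0.05 (adjusted p = 4.94e-06), and the ligand gene Tgfb2 fell from 10.99, 9.73 and 11.5 CPM to 7.34, 7.42 and 6.42 CPM (log2 fold change -0.61 ± 0.11, adjusted p = 0.00172). In the WNT list 5 of 35 kept genes fell and none rose, and 3 fell without control replicate 1, without any 1 of the 24 h replicates and without 48 h replicate 1 or 48 h replicate 3. The ligand gene Wnt2b fell from 12.4, 11.4 and 13.3 CPM to 8.28, 5.99 and 6.63 CPM (log2 fold change -0.83 ± 0.13, adjusted p = 0.000404), and the secreted modulators Sfrp4 and Dkk3 fell by 0.38 ± 0.07 and 0.28 ± 0.05 on the log2 scale (adjusted p = 0.00288 and 0.00241).

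Immediate early transcription factors rose in part, with 8 higher and 1 lower of 40 kept, and 4 higher without 24 h replicate 1. Ier3, an NF-kB-responsive survival gene, rose from 30.95, 29.6 and 31 CPM to 59.7, 58.8 and 66.04 CPM (log2 fold change 1.01 ± 0.07, adjusted p = 1.39e-08). The orphan receptor gene Nr4a2 rose by 0.90 ± 0.15 (adjusted p = 0.00048) and the AP-1 subunit gene Fosl2 by 0.53 ± 0.07 (adjusted p = 3.62e-05). The basic leucine zipper gene Nfil3 rose by 0.58 ± 0.08 (adjusted p = 0.000113). Nfil3 was the only called gene of 22 in the circadian list (4.55%, against 6.15% over all genes kept). In the list of YAP and TAZ targets and cytoskeleton genes 5 of 32 rose and 1 fell, with 9 higher without control replicate 3, 3 without control replicate 1 or 24 h replicate 3 and 2 without 24 h replicate 1. The fallen member was Hopx, an atypical homeodomain gene, which went from 24.2, 26.7 and 25.2 CPM to 9.14, 9.7 and 8.396 CPM (log2 fold change -1.48 ± 0.12, adjusted p = 3.14e-07) and reached 58.2, 57.4 and 42.9 CPM at 48 h. Tagln2, an actin-binding protein gene, rose by 0.30 ± 0.04 (adjusted p = 0.000205).

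In the list of DNA replication and nucleotide synthesis 1 of 57 kept genes rose, and in that of mitosis 1 of 57 rose (8 without control replicate 3). Each share was 1.75%, against 3.25% higher over all genes kept, and the medians were -0.04 and 0.07. Small estimates leaned to 1 side, with 45 of the 57 mitosis genes above 0 and 37 of the 57 replication genes below 0. Among G1 cyclins and inhibitors 3 rose and 4 fell of 25 (1 rose without 24 h replicate 1, and 2 fell without control replicate 1, 24 h replicate 1 or 24 h replicate 3), including the INK4 inhibitor genes Cdkn2a and Cdkn2b, which fell by 0.32 ± 0.05 and 0.35 ± 0.07 on the log2 scale (adjusted p = 0.00068 and 0.00352). Of 27 kept genes of the BCL-2 family and other death regulators, none rose and 1 fell (3.7% called, against 6.15% over all genes kept).

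Lipid genes were mixed. In the fatty acid and lipid droplet list 4 rose and 4 fell of 39 kept, while 7 rose without control replicate 3 and 1 fell without 24 h replicate 1 or 24 h replicate 3. Dgat2, which makes triglyceride, rose from 4.39, 5.23 and 3.99 CPM to 9.55, 8.59 and 8.61 CPM (log2 fold change 0.98 ± 0.15, adjusted p = 0.00024), and Hilpda, a hypoxia-inducible droplet protein gene, by 0.42 ± 0.07 (adjusted p = 0.000486). Plin4, a perilipin gene, fell from 42.8, 45.5 and 42.7 CPM to 23.9, 22.7 and 26.1 CPM (log2 fold change -0.85 ± 0.08, adjusted p = 6.33e-07). In the sterol list 2 rose and 4 fell of 33, while 5 rose without control replicate 3, 2 fell without control replicate 1 or 24 h replicate 1 and 0 without 24 h replicate 3.

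Adhesion and growth factor binding genes also divided. Integrins and adhesion molecules held 3 higher and 3 lower of 29, and 5 higher without control replicate 3. Vcam1, the cytokine-induced adhesion molecule, rose from 13.7, 12.6 and 12.1 CPM to 19.8, 16.9 and 21.1 CPM (log2 fold change 0.58 ± 0.11, adjusted p = 0.00285), the heparan sulphate proteoglycan gene Sdc4 rose by 0.43 ± 0.04 (adjusted p = 1.85e-06), and the integrin gene Itgb4 fell by 0.37 ± 0.07 on the log2 scale (adjusted p = 0.00381). Of the IGF system, Igfbp7 rose from 41.6, 40.1 and 29.8 CPM to 55.6, 53.5 and 56.2 CPM (log2 fold change 0.57 ± 0.09, adjusted p = 0.000667) and Igfbp6 fell from 315, 361 and 301 CPM to 256, 263 and 257 CPM (log2 fold change -0.33 ± 0.06, adjusted p = 0.00116), the only called genes of 12 kept (4 higher and 2 lower without control replicate 3). Of 17 kept complement genes C3 was the higher and 1 other was lower. The intermediate filament gene Vim fell from 3174, 3313 and 3017 CPM to 2712, 2827 and 2806 CPM (log2 fold change -0.19 ± 0.04, adjusted p = 0.00289).

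**Figure D4:**
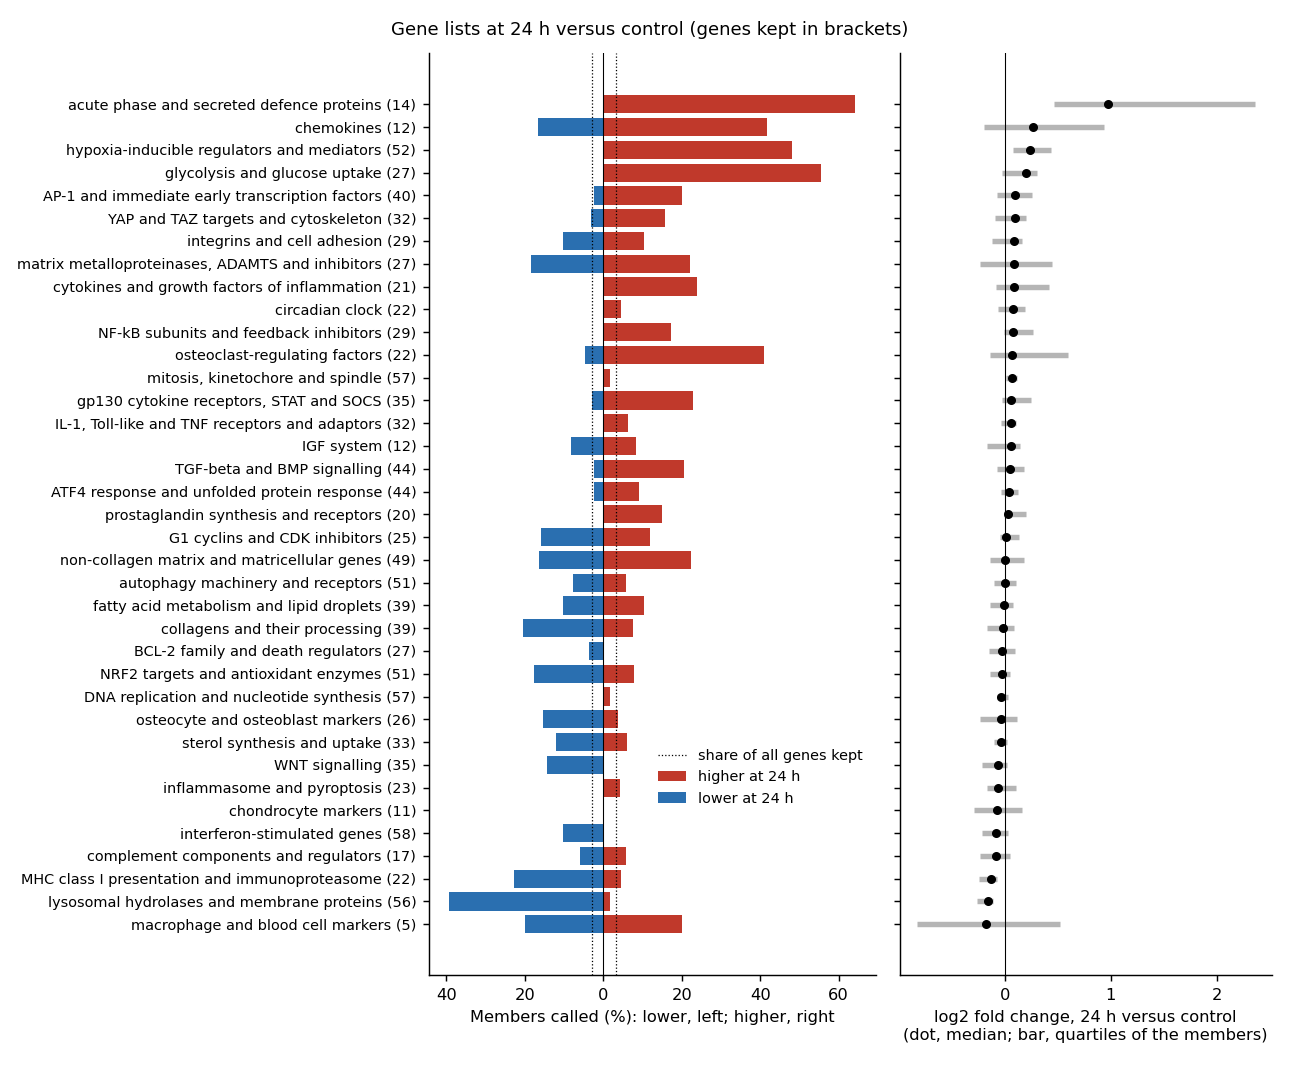
Each row is 1 of 37 gene lists with the number of kept genes in brackets. The left panel gives the percent of members called higher (red) and lower (blue) at 24 h, with dotted lines at the shares over all genes kept (3.25% and 2.9%), and the right panel the median log2 fold change (dot) with the quartiles of the members (bar). Acute phase, hypoxia and glycolysis lists have the highest shares of higher genes, and the lysosomal list the highest share of lower genes. Members of 1 list are not independent replicates, and some genes are in several lists. The lists were chosen with earlier results of these data known.

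Genes that had returned at 48 h were defined as those called at 24 h versus control, called in the opposite direction at 48 h versus 24 h, not called at 48 h versus control, and with a 48 h estimate of at most 0.25 of the 24 h estimate in size. For background, the comparison of 48 h with control called 46.4% of genes kept, and that of 48 h with 24 h called 49.1%, with no overlap in 59.4%. By this rule 129 genes had returned, which was 15.2% of the 849 called genes and 0.934% of the genes kept. Of these, 48 had been higher (10.7% of the higher genes) and 81 lower at 24 h (20.25% of the lower genes). Without control replicate 3 there were 100 and 111, without 24 h replicate 3 31 and 51, and without 24 h replicate 1 34 and 46. Both comparisons share the control libraries.

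The returned genes with the largest rises were Cxcl1 and Cxcl3 (above), followed by Htr2a, a serotonin receptor gene, and Fst. Htr2a stood at 6.28, 6.705 and 6.17 CPM in the control, 19.02, 14.6 and 14.6 CPM at 24 h and 7.03, 7.55 and 9.08 CPM at 48 h (log2 fold changes 1.34 at 24 h and 0.31 at 48 h, adjusted p = 3.89e-06 and 0.0944). Though Htr2a was not called at 48 h, its 48 h libraries all lay above every control library. Fst went back to 4.51, 5.39 and 4.22 CPM, Vcam1 to 12.1, 14.4 and 11.5 CPM, Igfbp7 to 31.6, 35.7 and 35.98 CPM and Il1rl1 to 981, 1026 and 1070.0 CPM at 48 h. Smox, which oxidises spermine, rose from 21.9, 25.1 and 23.5 CPM to 35.9, 34.4 and 44.6 CPM and was at 20.9, 21.2 and 20.8 CPM at 48 h (adjusted p versus control = 6.71e-05 at 24 h and 0.182 at 48 h). Its 48 h libraries all lay below every control library. Neu2, a cytosolic sialidase gene, rose from 11.05, 13.6 and 12.3 CPM to 19.5, 19.5 and 21.2 CPM and was at 12, 12.05 and 12.1 CPM at 48 h (adjusted p = 0.000107 and 0.852).

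Among the genes that fell and returned with a mean of at least 1 CPM in the control or 24 h libraries, the imprinted long non-coding RNA H19 went from 5.71, 3.11 and 4.74 CPM to 1.202, 1.82 and 1.199 CPM and back to 3.77, 5.63 and 4.32 CPM (log2 fold changes -1.69 at 24 h and -0.002 at 48 h, adjusted p = 0.00048 and 0.994). Plxdc1, a plexin-domain receptor gene, went from 12.2, 13.8 and 11.4 CPM to 6.01, 5.47 and 5.64 CPM and 15.03, 16 and 13.7 CPM (adjusted p = 7.28e-06 and 0.0613). Spon2, a secreted matrix protein gene, went from 30.4, 30.1 and 26.6 CPM to 14.6, 18.3 and 15.4 CPM and 37.02, 32.3 and 31.5 CPM (adjusted p = 1.55e-05 and 0.0677). In each of these the 24 h libraries lay below both other groups, and for Spon2 every 48 h library lay above every control library. Gpnmb and Psme1 were also in this set, as was the macrophage growth factor receptor gene Csf1r, at 3.14, 3.84 and 2.93 CPM in the control and 1.54, 2.28 and 1.69 CPM at 24 h (adjusted p = 0.0377, lost on leaving out the control replicates 1 or 2 or the 24 h replicates 1 or 3, with adjusted p up to 0.17, and also with DESeq2, adjusted p = 0.0505, and with the control and 24 h libraries alone, adjusted p = 0.0676).

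**Figure D5:**
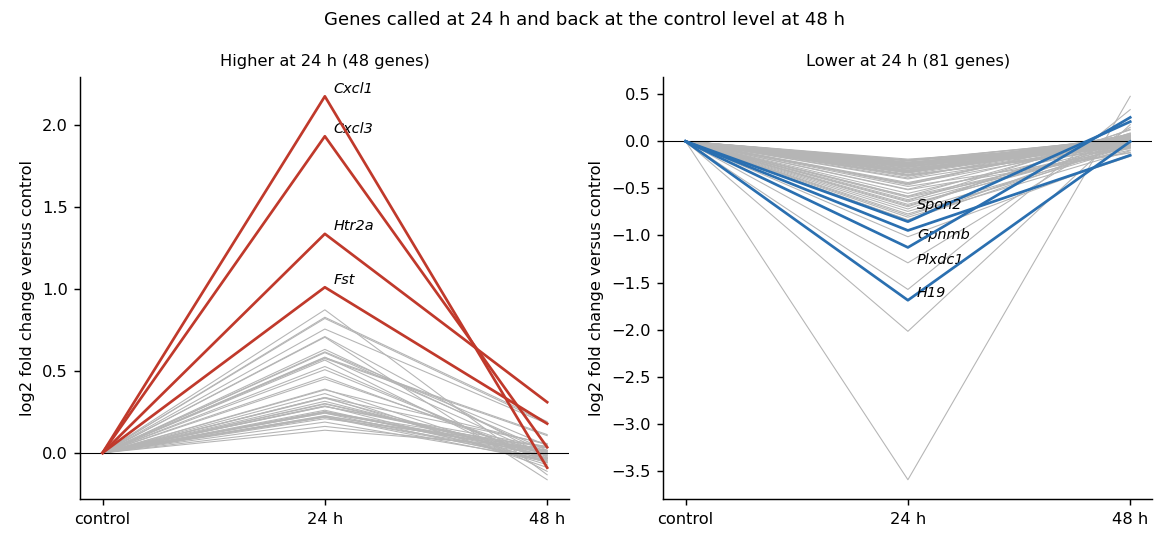
Lines join the log2 fold change versus control at 24 h and at 48 h of the 129 returned genes, with the control at 0, for the 48 genes higher (left) and the 81 lower at 24 h (right). Coloured lines mark named genes. The rule fixes that all lines come back towards 0 at 48 h.

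Other early changes persisted or grew by 48 h. Gpr35, a G protein-coupled receptor gene among the largest rises at 24 h (2.7, 3.52 and 1.505 CPM to 7.81, 10.4 and 11.01 CPM, log2 fold change 1.92 ± 0.20, adjusted p = 5.34e-06), was at 14.97, 13.5 and 14.04 CPM at 48 h. Others fell at 24 h and stood above the control at 48 h. Susd2, a membrane protein gene, went from 19.3, 22.5 and 20.1 CPM to 10.7, 11.6 and 11.9 CPM and then 68.4, 59.9 and 60.96 CPM, and Ggt5, a gamma-glutamyl transferase gene, from 12.7, 13.5 and 11.1 CPM to 6.34, 7.03 and 6.77 CPM and then 44.3, 38.5 and 38.01 CPM (adjusted p at 24 h = 9.01e-06 and 5.97e-05).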

How the data were processed

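RNA of MLO-Y4 cells from 9 libraries was sequenced after a directional library preparation. The deposited table holds whole-number counts of reads per gene, made by the authors with HISAT2 on GRCm39 and featureCounts, whose version is given differently in the protocol and in the submitters' processing notes (2.06). These counts are raw. Genes were kept by filterByExpr with a minimum count of 10. Libraries were scaled by TMM, and edgeR 4.0.16 (R 4.3.3, limma 3.58.1) fitted its quasi-likelihood model with 1 term per group to all 9 libraries. Adjusted p-values are Benjamini-Hochberg over the genes kept, and the threshold was 0.05. Intervals are 95% intervals of single genes, not adjusted. The script was tested on simulated data. Total counts ranged from 12250628 to 18515456, and counting error alone was smaller than the spread between libraries. Where every control library held at most 3 counts, a fold was given against a floor of 3 counts per library.

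The members and gene lists were chosen with earlier results of these data known. Genes named were, at a mean of at least 1 CPM, up to 4 called members of each list by fold (in lists with fewer than 2 called, the members of highest level), the 12 higher and 12 lower protein-coding genes of largest fold at a mean of at least 5 CPM without overlap, the 5 in each direction of largest difference in CPM, the 10 returned genes in each direction of largest fold, and Gsdmd, Casp1, Casp4, Il6, Nfkbia, Tnfsf11, Tnfrsf11b, Vegfa, Ptgs2, Hmox1, Socs3 and Cxcl1. Not all of them are described. Alternatives were DESeq2 1.42.0 and its size factors, scaling by total count, no filter, the control and 24 h libraries alone, a replicate block and leaving out each library. Deviations from the group means of the control and 24 h libraries numbered 1, 2 and 3 had correlations of -0.047, 0.019 and -0.018, so the numbers do not pair these libraries. The 48 h libraries were not part of that check.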

Additional observations from a re-analysis of the deposited data

Results flagged for a closer look

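For 26 of the genes whose values are given, the change at 24 h and the change at 48 h versus control were both called and opposite in sign, and the difference between 48 h and 24 h was itself called in edgeR's quasi-likelihood test. Both changes share the control libraries, and the values below are log2 fold changes at 48 h versus 24 h. Genes that were higher at 24 h and lower than the control at 48 h were Ptgs2 (-1.7), Ramp3 (-1.64), Ereg (-1.59), Timp1 (-1.49), Il11 (-1.43), Tagln2 (-0.844), Inhba (-0.838), Ripk2 (-0.768) and Hspa5 (-0.452). Ereg, an EGF receptor ligand gene, Ramp3, which encodes a partner of calcitonin-family receptors, and Timp1 were chosen after their values were seen.

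Genes that were lower at 24 h and higher than the control at 48 h included the secreted matrix and growth factor genes Sfrp4 (2.5), Ogn (2.08), Tgfb2 (2.02), Col14a1 (1.54), Dkk3 (0.727), Igfbp6 (0.476) and Col1a2 (0.451). The others were Ggt5 (2.58), Hopx (2.54), Susd2 (2.47), Ifit3 (1.61), Ccl9 (1.26), Itgb4 (1.08), Gstm1 (1.02), Cdkn2a (0.643), Tap2 (0.585) and Psap (0.558). The 24 h calls of Ripk2, Ifit3 and Tap2 did not survive leaving out some single libraries, as given above.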

How the results depend on the processing

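The fit reported called 449 genes higher and 400 lower. Separate fits called 480 and 378 with DESeq2 size factors (827 of the 849 shared), 395 and 486 with scaling by total count (795 shared) and 500 and 375 with DESeq2 (801 shared). Without the filter 759 genes were higher, and with the control and 24 h libraries alone 258 were lower. An adjusted p under 0.01 left 259 and 205, an absolute log2 fold change of at least 0.5 left 154 and 96, and one of at least 1 left 46 and 17. Leaving out 1 library gave 288 to 872 higher and 226 to 618 lower genes. A replicate block, although the numbers do not pair the libraries, gave 538 and 420 (829 of the 849 kept their call and direction) and 57 and 84 returned genes. The returned genes, 48 and 81, became 93 higher without the filter, 88 and 128 with a limit of 0.5 on the 48 h estimate and 93 and 134 with no limit, and 31 to 100 and 46 to 111 with 1 library left out. The causes were not tested. Uncalled estimates near 0 changed sign with 1 library left out for Casp1 (-0.0084 without 24 h replicate 1, up to 0.18 without control replicate 2), Tnfrsf11b (0.11 without 24 h replicate 3, down to -0.48 without 24 h replicate 2) and Hmox1 (-0.0074 without control replicate 3, up to 0.044 without control replicate 1). Of 110 called genes with values in the text, 103 kept call and direction in the alternatives run. For single genes these did not include leaving out a 48 h library. With 3 libraries a group, changes of genes at a few counts, such as Il6 and Car9, have wide intervals.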

Other observations

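Several genes outside the lists also moved, and they were chosen after their values were seen. Ereg, which encodes an EGF receptor ligand and overlaps another gene kept, rose from 57.6, 53.1 and 59.1 CPM in the control to 123, 115 and 119.8 CPM at 24 h (log2 fold change 1.07 ± 0.06, adjusted p = 1.52e-09 in edgeR's quasi-likelihood test) and stood at 37.99, 39.6 and 41.6 CPM at 48 h. Ramp3 rose from 12.4, 11.9 and 12.9 CPM to 27.5, 20.1 and 27.9 CPM (log2 fold change 1.02 ± 0.12, adjusted p = 1.86e-05) and stood at 8.17, 7.31 and 8.59 CPM at 48 h. In both genes the 24 h libraries lay above the libraries of both other groups.

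Slpi, a secreted inhibitor of neutrophil proteases, rose from 17.7, 15.2 and 15.6 CPM to 45.3, 40.04 and 46.1 CPM (log2 fold change 1.43 ± 0.08, adjusted p = 2.75e-09) and stood at 26.3, 24.6 and 25.3 CPM at 48 h. Cemip, which encodes a hyaluronan-degrading protein, rose from 4.33, 4.33 and 5.49 CPM to 12.1, 9.31 and 11.4 CPM (log2 fold change 1.22 ± 0.15, adjusted p = 2.81e-05) and stayed at 13.8, 12.05 and 11.3 CPM. Has2, the hyaluronan synthase gene, had also risen at 24 h but stood at 5.26, 5.63 and 6.89 CPM at 48 h.

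A pair of called genes rested on uneven libraries. Gm10123 had 32.6, 80.8 and 73.4 CPM in the control, 135, 264 and 265 CPM at 24 h and 71.2, 56.8 and 257 CPM at 48 h (adjusted p = 0.0116 at 24 h, and up to 0.0874 with 1 library left out). Gm29216 had 4.83, 68.03 and 5.19 CPM in the control, so 1 control library stood far above the other two, and 4.54, 2.67 and 3.25 CPM at 24 h. Its log2 fold change of -2.86 became -0.52 without control replicate 2 (adjusted p = 0.286).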
